A study of Mus musculus with 2 samples.

Results

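The Mir26 family of the mouse consists of 3 microRNA genes, Mir26a-1, Mir26a-2 and Mir26b, and all 3 were found by identifier among the 2202 microRNA genes counted in this study. They were chosen by name, with no measured value in the rule. The study holds a single group of 2 small RNA libraries, labelled replicate 1 and replicate 2, from the calf muscle gastrocnemius of male B6CASTF1/J mice aged 4 days. B6CASTF1/J mice are first-generation hybrids of C57BL/6J and CAST/EiJ parents. The labels name no treatment or altered allele. They give the libraries separate animal numbers (3 for replicate 1 and 4 for replicate 2) but 1 donor identifier, so the spread between them is that of 2 labelled samples of 1 kind of animal.

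MicroRNAs are cut from hairpin precursors, and base pairing of the seed, bases 2 to 8 of the mature strand, with target messenger RNAs lowers the output of those targets. Each Mir26 gene lies inside a gene for a CTD small phosphatase (Ctdsp1, Ctdsp2 or Ctdspl), enzymes that act on RNA polymerase II and on other phosphoproteins. In muscle precursor cells miR-26a is known for acting on Ezh2, a histone methyltransferase that holds back muscle genes, and on Smad proteins of the TGF-beta pathway. The family is also known for slowing the cell cycle together with its host phosphatases.

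The mature sequences, given first because they decide which reads can be assigned to 1 gene, are printed 5′ to 3′ from the RefSeq table for GRCm38.p6, the build called mm10 in the deposited files, with the seed in capitals. Precursor sequence and position were the same in RefSeq and in GENCODE M21 for each of the 3 genes.
miR-26a-5p, from both Mir26a-1 and Mir26a-2: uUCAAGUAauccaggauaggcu
miR-26b-5p, from Mir26b: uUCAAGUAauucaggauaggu
miR-26a-1-3p, from Mir26a-1: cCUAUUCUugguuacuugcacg
miR-26a-2-3p, from Mir26a-2: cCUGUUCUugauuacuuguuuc
miR-26b-3p, from Mir26b: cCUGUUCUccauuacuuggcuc

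The 5p arms carry a single seed, UCAAGUA, which no other gene of the RefSeq mouse table has. Over the 21 bases that miR-26a-5p and miR-26b-5p have in common, 19 are the same and 2 differ, written C11U and C21U with the miR-26a-5p base first and positions counted from its 5′ end. The 3p arms are less alike. Over 22 bases miR-26a-1-3p differs from miR-26a-2-3p at 6 and from miR-26b-3p at 8, and miR-26a-2-3p differs from miR-26b-3p at 4. The substitution A4G separates the seed of miR-26a-1-3p, CUAUUCU, from the seed CUGUUCU of the other two. The seed CUGUUCU also occurs in a 3p arm of Mir7039 (2 reads in replicate 1 and 0 in replicate 2) and of Mir6932 (1 and 2).

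The precursors place these arms in a common layout, shown here with both mature arms in capitals so that the bases between and outside them can be compared.
Mir26a-1 (chr9:119031796-119031885, plus strand): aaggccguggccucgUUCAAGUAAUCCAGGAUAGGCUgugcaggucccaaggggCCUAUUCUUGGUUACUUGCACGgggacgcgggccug
Mir26a-2 (chr10:126995530-126995613, plus strand): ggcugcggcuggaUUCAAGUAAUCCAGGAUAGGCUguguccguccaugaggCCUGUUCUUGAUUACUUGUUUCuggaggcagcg
Mir26b (chr1:74394310-74394394, plus strand): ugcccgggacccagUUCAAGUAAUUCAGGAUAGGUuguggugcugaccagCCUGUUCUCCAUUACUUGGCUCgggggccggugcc

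Mir26a-1 and Mir26a-2 share a run of 25 nt that holds the whole 5p arm and the 3 bases after it. It spans positions 16 to 40 of the Mir26a-1 precursor and 14 to 38 of the Mir26a-2 precursor. Of the 69 stretches of 22 nt in Mir26a-1, 4 also occur in Mir26a-2, and no other annotated microRNA gene holds any of them. Mir26b shares no stretch of 22 nt or of 18 nt with another annotated microRNA gene. A read of the exact miR-26a-5p sequence therefore matches both Mir26a loci, whereas a read of miR-26b-5p, or of any of the 3p arms, matches 1 annotated precursor; the genome outside annotated precursors was not searched. In counts of the deposited layout, reads with several matches are set aside before genes are counted. The counts at Mir26a-1 and Mir26a-2 are thus not a measure of miR-26a-5p, and the gene counts do not show which arm or end variant a read came from.

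**Figure D1:**
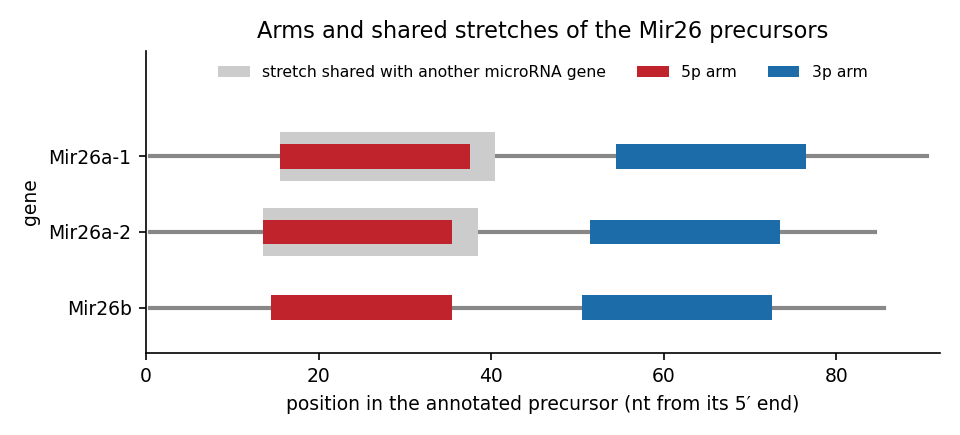
Map of the 3 Mir26 precursors, with the position in nt from the precursor's 5′ end on the horizontal axis. Red blocks are 5p arms, blue blocks are 3p arms and grey blocks are the run of 25 nt that another microRNA gene also holds; in Mir26a-1 and Mir26a-2 it covers the whole 5p arm, and Mir26b has none.

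The genes sit at matching places in their hosts. On mm10, Mir26a-1 lies in intron 5 of 7 of Ctdspl (chromosome 9, 118926453 to 119043998), an intron of 3283 nt. Mir26a-2 lies in intron 5 of 7 of Ctdsp2 (chromosome 10, 126978717 to 126999975), an intron of 1946 nt, and overlaps an exon in 2 other annotated transcripts of that gene. Mir26b lies in intron 4 of 6 of Ctdsp1 (chromosome 1, 74391509 to 74397285), an intron of 564 nt. Intron numbers are those of the host transcript with the longest coding sequence, and each microRNA is on its host's strand.

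The neighbouring microRNA genes had few or no reads. The nearest other microRNA gene to Mir26a-2 is Mir546, also inside Ctdsp2, 2.8 kb away, with 2 reads in replicate 1 and 3 in replicate 2. The nearest to Mir26b and Mir26a-1 are 187.7 kb and 1032.4 kb away and had 0 reads in both libraries.

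Replicate 1 held 8522350 reads, of which 4458853 (52.3%) fell on the sense strand of microRNA genes, and replicate 2 held 7240126, of which 3073086 (42.4%) did so. Reads with several matches made up 35.7% of replicate 1 and 45.1% of replicate 2. The markers of the labelled tissue differed between the libraries. Counts of the skeletal muscle gene Mir206 were 652657 in replicate 1 against 101 in replicate 2. For Mir208a, a heart gene inside Myh6, they were 59 and 29718. Summed over 9 skeletal muscle genes the share was 14.7% in replicate 1 and 0.479% in replicate 2, and Mir206 made up 99.4% of that sum in replicate 1. Reads with several matches are not in these counts, so neither this sum nor the median below is a level of mature microRNAs. Of the 9 skeletal muscle genes 8 were tested as below. Among them 3 (Mir206, Mir133b and Mir133a-1) were called higher in replicate 1 and 3 (Mir208b, Mir499 and Mir486) higher in replicate 2. The median log2 ratio of the 8 was 0.17. Whether each listed gene is particular to skeletal muscle was not tested, so this split does not show that the libraries hold like amounts of it. The 67 microRNA genes of the imprinted Dlk1-Dio3 domain took 32.9% and 0.973%. The counts of Mir206 and Mir208a go against the tissue label of replicate 2, and whether that library is gastrocnemius was not tested. The libraries are named by their labels, and the ratios, means and SDs across them may not be between samples of 1 tissue. Every Mir26 value is therefore given by library, and the part of these marker differences in the Mir26 values was not tested. In whole tissue, fewer cells of a type and less RNA per cell cannot be told apart.

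Mir26b supplied nearly all counted reads of the family. It had 60105 sense reads in replicate 1 and 73808 in replicate 2. For Mir26a-2 the counts were 129 in replicate 1 and 65 in replicate 2, and for Mir26a-1 they were 14 and 3. Mir26b had 466 reads in replicate 1 and 1136 in replicate 2 for each read of Mir26a-2. The order Mir26b, Mir26a-2, Mir26a-1 was the same in both libraries.

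As a share of the microRNA reads, Mir26b held 1.35% of replicate 1 (exact 95% interval 1.34 to 1.36%) and 2.40% of replicate 2 (2.38 to 2.42%), a mean of 1.87% ± 0.745 (SD, n = 2). It ranked at 18 in replicate 1 and at 12 in replicate 2. Mir26a-2 held 28.9 CPM (counts scaled to 1000000 assigned reads) in replicate 1 and 21.2 CPM in replicate 2, at ranks 221 and 222. Mir26a-1 held 3.14 CPM and 0.976 CPM, at ranks 315 and 420. The 3 reads of Mir26a-1 in replicate 2 equal the limit that a count of 0 allows there. The exact intervals of the 3 genes do not overlap with one another within either library.

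The precursors are 90, 84 and 85 nt long for Mir26a-1, Mir26a-2 and Mir26b, and the order is kept per length. Mir26b had 707 reads per annotated nt in replicate 1 and 868 in replicate 2. Mir26a-2 had 1.54 and 0.774 reads per nt, and Mir26a-1 had 0.156 and 0.0333. No gene of the family had an antisense read in either library, where a count of 0 allows up to 3 reads, and the unstranded column held the same numbers as the sense column.

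**Figure D2:**
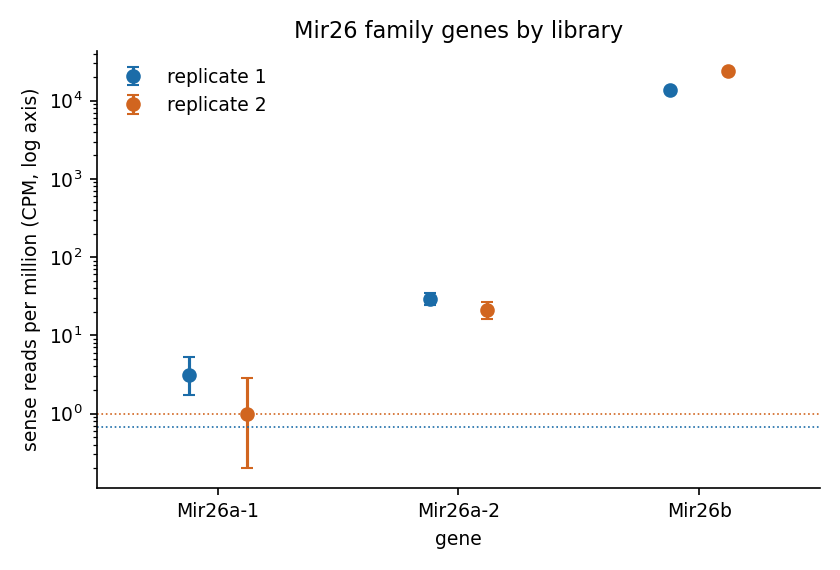
CPM of sense reads (log axis) for each Mir26 gene, with replicate 1 in blue left of replicate 2 in orange. Bars are exact 95% counting intervals and dotted lines the level of 3 reads in each library; Mir26b lies at 13480 CPM in replicate 1 and 24018 CPM in replicate 2, far above Mir26a-2 and Mir26a-1.

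The balance between the locus with its own mature sequence and the copied loci differed between the libraries. In replicate 1 there were 420 Mir26b reads for each read at the Mir26a loci (95% counting interval 357 to 499), and in replicate 2 there were 1085 (856 to 1398). The log2 ratio between these balances, replicate 1 over replicate 2, was −1.37 (−1.81 to −0.94). No scaling enters this value, because each balance is taken within a library. Against Mir26a-2 alone the log2 ratio was −1.29 (−1.74 to −0.84) and against Mir26a-1 alone −2.52 (−4.96 to −0.68). The Mir26a loci together gave 0.237% of the family's counted reads in replicate 1 and 0.0920% in replicate 2.

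Between the copied loci, Mir26a-2 supplied most reads. It held 129 of 143 reads in replicate 1, 90.2% (84.1 to 94.5%), and 65 of 68 in replicate 2, 95.6% (87.6 to 99.1%). That is 9.21 Mir26a-2 reads for each Mir26a-1 read in replicate 1 (5.30 to 17.3) and 21.7 in replicate 2 (7.09 to 108). The log2 ratio between the libraries was −1.23, with an interval from −3.72 to 0.68 that includes 0, so a difference in this balance was not detectable at this depth. A read that lies wholly inside the shared run of 25 nt matches both loci, and the gene counts do not show which positions the counted reads cover.

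Between the libraries, the Mir26a loci were higher in replicate 1 under TMM scaling and Mir26b was not called. Log2 ratios are replicate 1 over replicate 2 with TMM scaling, which sets the libraries level on genes in the middle of the ratio range, and intervals are exact 95% counting intervals. A gene was called where its log2 ratio was 1 or more in size and its adjusted p was under 0.05 (exact binomial test of its reads, Benjamini-Hochberg over 410 genes). The test sets these libraries against each other, not conditions, and covers counting error only. Of the 410 genes tested 53.7% were called in either direction, 36.1% as higher in replicate 1 and 17.6% as higher in replicate 2. With DESeq2 size factors 55.4% were called (31.0% higher in replicate 1 and 24.4% in replicate 2), and with total reads 61.0% (28.0% and 32.9%).

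All 3 members had the 10 reads in total needed for the test, and 2 of 3 were called, both as higher in replicate 1. With 53.7% of all tested genes called, that count is not particular to the family. Mir26a-1 had a log2 ratio of 1.98 (0.47 to 4.75; exact binomial test, adjusted p = 0.00884), resting on 14 reads against 3. Mir26a-2 had a log2 ratio of 1.07 (0.64 to 1.53; exact binomial test, adjusted p = 9.6e-07), just past the threshold. Mir26b had a log2 ratio of −0.21 (−0.22 to −0.19) and was not called. The family's median of 1.07 stood beside a median of 0.33 over all genes tested. With 3 members that median is the value of Mir26a-2 and not that of the family's reads, nearly all of which were at Mir26b. The family's summed share of microRNA reads was 1.35% in replicate 1 and 2.40% in replicate 2.

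Under TMM the ratio of Mir26b was distinct from 0 in counting terms, and 29 of 410 genes had a smaller absolute log2 ratio. That number was 66 by DESeq2 size factors and 119 by total reads, so its rank depends on the scaling. The median absolute log2 ratio under TMM was 1.25. In the order of ratios among all tested genes, Mir26b lay at percentile 40.5, Mir26a-2 at 62.9 and Mir26a-1 at 74.1. The spread between the libraries was far wider than counting error. Treating both libraries as 1 group, edgeR put the common dispersion at 1.23 (biological coefficient of variation 1.11). An exact test in edgeR with that dispersion left 0.0% of the 410 genes called (0 genes), while 28 genes were under 0.05 before adjustment. The adjusted p of that edgeR test was 1 for each of the 3 members. The dispersion holds the difference under test, so the 0 calls do not show that the libraries are alike.

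**Figure D3:**
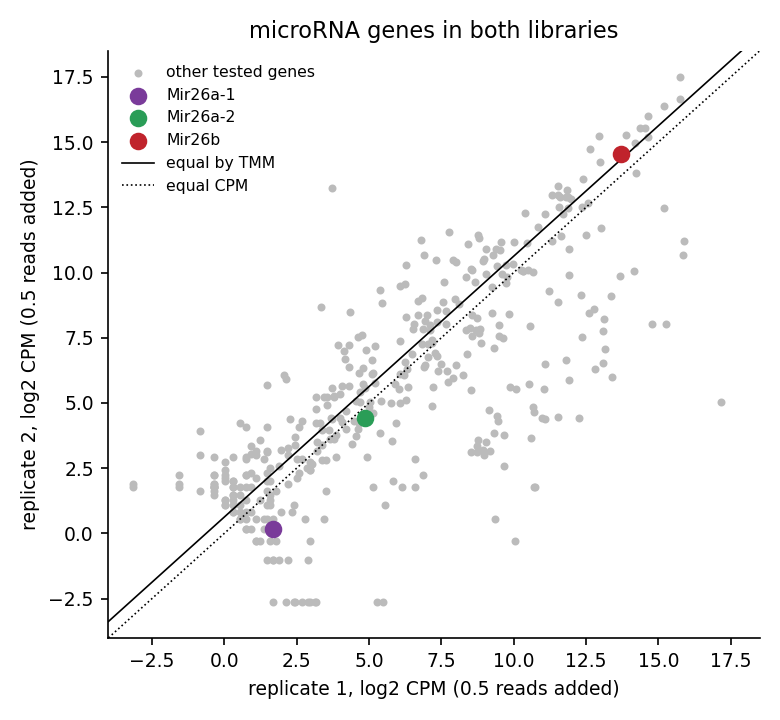
Log2 CPM of the 410 tested microRNA genes, replicate 1 on the horizontal and replicate 2 on the vertical axis, with 0.5 reads added to each count. The solid line marks equal levels after TMM scaling and the dotted line equal CPM; Mir26b lies close to the solid line near the top of the range, while Mir26a-2 and Mir26a-1 lie below it.

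The direction of the ratios was the same under every scaling tried, but their size was not. Over all tested genes the median was 0.07 by DESeq2 size factors, −0.26 by total reads and 0.33 by TMM. Mir26b stood at −0.49 by DESeq2 size factors, at −0.83 by total reads, and at −0.07 when the Dlk1-Dio3 genes were left out of the scaling. Mir26a-2 stood at 0.79 by DESeq2 size factors and 0.45 by total reads, and neither was a call. Mir26a-1 stood at 1.75 and was called with DESeq2 size factors, and at 1.46 and not called with total reads, where its interval of −0.16 to 4.13 includes 0.

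These scalings shift every gene by nearly the same amount, so the position relative to the median gene is close to fixed. Mir26b minus that median was −0.54 under TMM, −0.56 under DESeq2 size factors and −0.58 under total reads. For Mir26a-2 the same differences were 0.74, 0.72 and 0.70. Where the gene set changed, to genes with at least 100 reads, they were −0.75 for Mir26b and 0.53 for Mir26a-2. The larger share of Mir26b in replicate 2 also depends on what else fills the library. With the Dlk1-Dio3 genes out of the denominator Mir26b held 2.01% of replicate 1 and 2.43% of replicate 2, a smaller gap than 1.35% and 2.40%. As a share of all reads of a library, unassigned ones included, it held 0.705% and 1.02%.

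**Figure D4:**
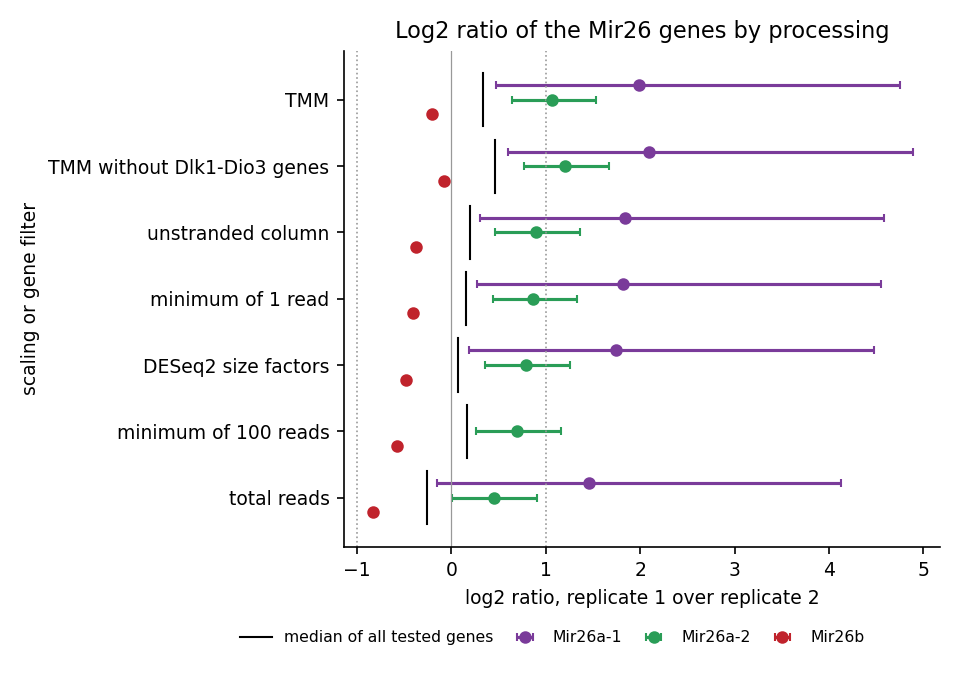
Log2 ratio of each Mir26 gene, replicate 1 over replicate 2, under 7 scalings or gene filters, with exact 95% counting intervals (those of Mir26b are narrower than its points). Black ticks mark the median of all tested genes and dotted lines the threshold of 1 in each direction; Mir26b stays left of the tick and the Mir26a loci right of it in each row that shows them (Mir26a-1 had too few reads for the minimum of 100).

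Other families were examined for the balance between copied loci and their relatives. Besides Mir26 there were 10, each with a pair of loci named as copies and 1 or more relatives named apart from them. A family here means its listed members only, and the Mir181b genes were left out of the Mir181 family. Shares within a family are thus shares of the listed members' reads. Mir199b, the relative in the Mir199 family, has its 1 listed mature sequence at other loci too. In 9 of the 10 families both copied loci had entries in the RefSeq table, and these share 1 mature arm in 8 families and both arms in 1, Mir199. In replicate 1 the copied pair had fewer reads than the other members in 10 of 10 families, and in replicate 2 in 8 of 10. The exceptions were Mir133, with 18 reads at the pair and 10 at Mir133b, and Mir19, with 4 and 4.

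The Mir26 pair had a smaller part of its family's reads than any of these 10 pairs in either library. Its 0.237% in replicate 1 stood beside a range of 0.759 to 48.1% with a median of 12.3%, and its 0.0920% in replicate 2 beside 0.706 to 64.3% with a median of 5.68%. The nearest were Mir30c-1 and Mir30c-2 in replicate 1 (381 reads against 49848 at Mir30a, Mir30b, Mir30d and Mir30e) and Mir103-1 and Mir103-2 in replicate 2 (66 reads against 9282 at Mir107). This is a description of 11 families that differ in how many members and shared bases they have. The families were chosen with earlier results of these data known, so the lowest place of Mir26 is not a test. Median levels of the 20 copied loci were 16.3 CPM (replicate 1) and 6.18 CPM (replicate 2), below 564 and 1114 CPM for the 16 other members. Some copied loci were higher in replicate 1, with 4714 reads at Mir196a-2 and 1444 at Mir181a-1. The matching counts from replicate 2 were 2 and 692. The part of shared reads in the gap between the medians was not tested. Of all 2202 genes, 49.1% shared a stretch of 22 nt with another gene on either strand, against 22.7% of the 410 tested. The tested genes that shared one had a median of 250 reads in replicate 1 and 124 in replicate 2. The other tested genes had 164 and 100. These medians leave out genes with under 10 reads in total, so they do not show how sharing relates to counts over all genes. The shares do not compare levels of the mature copies, since reads with several matches are not in these counts.

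**Figure D5:**
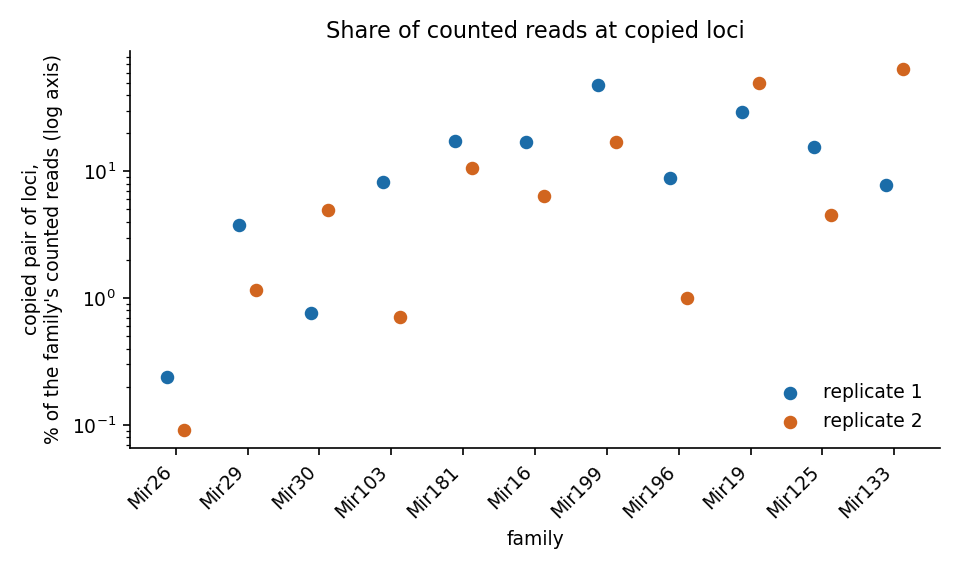
Share of the counted reads of a family's listed members that fell at its copied pair of loci (percent, log axis). Mir26 and 10 other families are shown, with replicate 1 in blue and replicate 2 in orange. The Mir26 points, 0.237% in replicate 1 and 0.0920% in replicate 2, are the lowest of their library.

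Copied loci were called in both directions across these families. Of 16 copied loci tested, 7 were called higher in replicate 1 and 2 higher in replicate 2, with a median log2 ratio of 0.65. That is 56.2% called, near the 53.7% over all tested genes. Of 16 other members, 3 were called higher in replicate 1 and 4 higher in replicate 2, with a median of −0.35. The copied loci gave 5 and 3 calls under DESeq2 size factors and 3 and 4 under total reads, scalings that shift every gene alike. Both copied Mir30c loci were higher in replicate 2, at −2.75 for Mir30c-1 and −3.32 for Mir30c-2, opposite to the Mir26a loci.

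Other microRNAs reported to act on Ezh2 were called in both directions. Of 10 listed genes 9 were tested, with 3 higher in replicate 1, 2 higher in replicate 2 and 4 not called, and a median log2 ratio of 0.58 beside 0.33 over all genes. The 5 calls are 55.6% of the 9, near the 53.7% over all tested genes. Mir214, which lies with Mir199a-2 in the Dnm3os transcript and is used here also as a fibroblast marker, was counted 25804 times in replicate 1 and 8555 times in replicate 2, at a log2 ratio of 1.68 (1.65 to 1.72). Mir101b, with 2060 and 709 reads, stood at 1.63 (1.50 to 1.75), and its relative Mir101a had 299 and 212 reads and stood at 0.58 (0.33 to 0.85).

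The let-7 members of that list went the other way or stayed under the threshold. Mirlet7b had 35150 reads in replicate 1 and 116887 in replicate 2, a log2 ratio of −1.64 (−1.66 to −1.63), and Mirlet7e had 13202 and 31434, at −1.16 (−1.19 to −1.13). Mirlet7i had 242319 and 312434 reads and stood at −0.28 (−0.28 to −0.27), while Mir98 had 14122 and 8378 reads and stood at 0.84 (0.80 to 0.88). Of the 9, Mirlet7i had more reads than Mir26b in both libraries and Mirlet7b in replicate 2. Mir138-1, with 155 and 74 reads, was called at 1.15, and Mir138-2, with 71 and 66, stood at 0.19 (−0.31 to 0.70). Mir101c had 0 reads in both libraries, which allows up to 0.673 CPM of assigned reads in replicate 1 and 0.976 CPM in replicate 2. Reads with several matches are not in these counts, and which genes of this list share sequence was not examined. The counts of the listed genes, those of Mir101a, Mir101c, Mir138-1 and Mir138-2 included, are thus not levels of mature microRNAs. In both other scalings the calls of Mir214, Mir101b, Mirlet7b and Mirlet7e were also made, and that of Mir138-1 was not.

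The genes closest to each member in level were taken as the 5 with the smallest distance in log2 CPM over the 2 libraries, a description that rests on 2 points. For Mir26b they were Mir99a, Mirlet7d, Mir139, Mir322 and Mirlet7b, at distances of 0.63 to 1.02. Mir99a, the nearest, was counted 83999 times in replicate 1 and 97444 times in replicate 2, a log2 ratio of −0.12 (−0.14 to −0.11). For Mir26a-2 they were Mir701, Mir138-1, Mir677, Snord43 and Mir183, at 0.27 to 0.47, and Mir701 had 113 and 57 reads. For Mir26a-1 they were Mir1969, Mir3080, Mir19a, Mir7021 and Mir135b, at 0.33 to 0.49, each with 11 to 15 reads in replicate 1 and 2 to 4 in replicate 2. Of these neighbours, those of Mir26a-1 lay near the limit of 3 reads in replicate 2 and those of Mir26a-2, with 49 to 88 reads there, did not.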

How the data were processed

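For each of 2 libraries the authors deposited raw counts of reads by microRNA gene, in unstranded, sense and antisense columns, on mm10 with GENCODE M21, per the file headers and the deposited description files. Inserts were under 30 nt, per the labels. Aligner, version and trimming: not given in the sources used here. The layout, 4 summary lines before the genes, is that of STAR gene counts. Those lines (in the sense column 9.97% unmapped, 35.7% multimapping and 2.05% outside genes in replicate 1; 8.60%, 45.1% and 3.83% in replicate 2) stayed out of library sizes and tests. All 2202 identifiers matched GENCODE M21.

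Sense counts were used. Log2 ratios have a prior count of 1 and TMM sizes from genes with at least 10 reads in total (edgeR 4.0.16, R 4.3.3); their intervals, and the Clopper-Pearson intervals of shares, have no prior and cover counting error only, as does the limit for a count of 0, set at 3 counts, since PCR copies are not independent molecules. Balances within a library were compared by exact conditional odds ratios. Alternatives were DESeq2 1.42.0 size factors, total reads, other filters and columns, and the edgeR exact test. The binomial test was checked on simulated counts that held counting error only, so the check does not cover the wider spread between these libraries. Named genes are the members, their 5 nearest genes and every gene of the Ezh2 and copied-locus lists; members and lists were chosen with earlier results of these data known. Other software was pandas 2.3.3, scipy 1.17.1, numpy 2.4.6 and Python 3.11.15.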

Additional observations from a re-analysis of the deposited data

How the results depend on the processing

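Of the log2 ratios, those of Mir26a-1, Mir26a-2 and Mir26b kept their sign under each alternative run. Mir26a-2 lost its call with DESeq2 size factors (0.79), total reads (0.45), the unstranded column (0.90), a minimum of 1 read (0.87) or of 100 reads (0.70), and in the edgeR exact test (1.08). Mir26a-1 lost its call with total reads (1.46) and in the edgeR exact test (2.26), and had too few reads for the minimum of 100. The minimum also chose the genes used for scaling. The exact test differs from the binomial test by its dispersion. In the other lost calls the counts of both genes were unchanged, and the library sizes after scaling differed. The ratio of those sizes, replicate 1 over replicate 2, was 0.940 in the main setting. It was 1.06 for the unstranded column, 1.08 for a minimum of 1 read and 1.22 for 100 reads. With DESeq2 size factors it was 1.14, and with total reads 1.45. The count of genes past the threshold was 220 and ran from 173 to 250 under the other settings, except 0 in the edgeR exact test, where 28 genes had an unadjusted p under 0.05. The number of genes tested changed with the filter or column, so these counts do not compare as shares. They were 173 of 266 genes with a minimum of 100 reads and 228 of 719 with a minimum of 1 read. In the unstranded column 205 of 385 genes passed, and in the main setting 220 of 410. The mean share of Mir26a-2, 0.00250%, became 0.00312% in the unstranded column, 0.00121% of all reads and 0.00322% without the Dlk1-Dio3 genes, and that of Mir26b, 1.87%, became 0.862% of all reads. The windows that Mir26a-1 and Mir26a-2 share numbered 8 at 18 nt and 1 at 25 nt, against 4 at 22 nt. With either library left out, mean shares ran from 1.35 to 2.40% for Mir26b, 0.00212 to 0.00289% for Mir26a-2 and 9.8e-05 to 0.000314% for Mir26a-1, and the ratio of Mir26b to Mir26a reads from 420 to 1085; a log2 ratio needs both libraries. No paired analysis was possible because the labels give a single group. Depth limits Mir26a-1 most, with 3 reads in replicate 2.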
